A study of Saccharomyces cerevisiae with 8 samples.

Results

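The transcripts described here belong to glycolysis, ethanol fermentation and gluconeogenesis in budding yeast (Saccharomyces cerevisiae). A list of 33 genes was searched for in an annotation table of the array, and every probe set whose genes all stood on that list was taken. The rule gave 37 of the 9335 probe sets on the array. Of the 33 genes, 32 had a probe set of their own, and TDH2 was read only by probe sets that it shares with TDH3 or with both TDH1 and TDH3. RNA was measured on 8 Affymetrix Yeast Genome S98 arrays. On 4 of them it had been recovered with Upf1p, the helicase of nonsense-mediated mRNA decay, through a TAP tag (a tandem affinity tag bound by IgG), and on 4 it came from mock selections done beside these, numbered 1 to 4 in each group. All cultures grew in YEPD, rich medium with glucose, at 30 ºC. The strain, the site of the tag and what the mock cells carried are not given in the sources used here. The last purification step started from the same amount of RNA in both groups, so a ratio speaks of a transcript's share of the recovered RNA, not of its yield or of its level in the cell.

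Glycolysis turns glucose into pyruvate, and yeast on glucose sends most of that pyruvate through pyruvate decarboxylase and alcohol dehydrogenase to ethanol. Many of the steps are served by several isozymes, of which one usually carries the flux on glucose while others are used on other carbon sources, in another compartment or under a nutrient shortage. Gluconeogenesis runs the path in reverse when glucose is absent, through enzymes whose genes glucose represses.

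Signals are scaled intensities without a unit. They are compared between arrays for 1 probe set, and never between probe sets as amounts of RNA. Each ratio is the mean over 4 pairs of log2(Upf1p-TAP signal) minus log2(mock signal), after an offset of 4.09 had been added to every signal. A transcript is called higher or lower where the adjusted p of limma, over all 9275 probe sets tested, was below 0.05. Over the 9275 probe sets tested, array medians ran from 58.2 to 78.1 and array maxima from 10259 to 23600.

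Of the 32 genes of the pathway, 10 were lower in the Upf1p-TAP selections, 4 were higher and 18 did not pass. Among all 5486 protein-coding genes 13.8% were lower and 20.1% higher. The median log2 ratio of the 32 genes was -0.37, against 0.05 for protein-coding genes. The 4 higher transcripts were PCK1, PDC5, ADH4 and ACS2. The 10 lower ones were HXK1, PFK2, TDH1, ALD6, PFK1, ENO1, CDC19, PGK1, FBA1 and PDC1. Without the pair term in the fit, the 4 higher calls stayed 4 and 4 were lower, namely PFK1, PFK2, CDC19 and ALD6. Leaving out pair 4 gave 3 higher and 5 lower. Over all 9275 probe sets, lower calls also fell, from 1249 to 931 without the pair term and to 775 without pair 4. Higher calls over all probe sets fell from 1642 to 1340 and 1076. After quantile normalization 4 genes were higher and 8 lower (1437 and 1460 of all probe sets). FBA1, PGK1, ENO1 and PDC1 were no longer called (adjusted p between 0.0511 and 0.144), and 2 other genes were newly called lower. Signals of the 2 groups did not overlap for 2 genes on the higher side (PCK1 and PDC5) and 4 on the lower (HXK1, PFK1, PYK2 and ALD6), where the shares of protein-coding genes were 16.6% and 12.1%. The median over the 32 genes was -0.51, -0.17, -0.30 and -0.36 in pairs 1 to 4, where protein-coding genes had -0.02, 0.12, -0.03 and 0.19, so the listed genes lay lower in each pair.

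**Figure D1:**
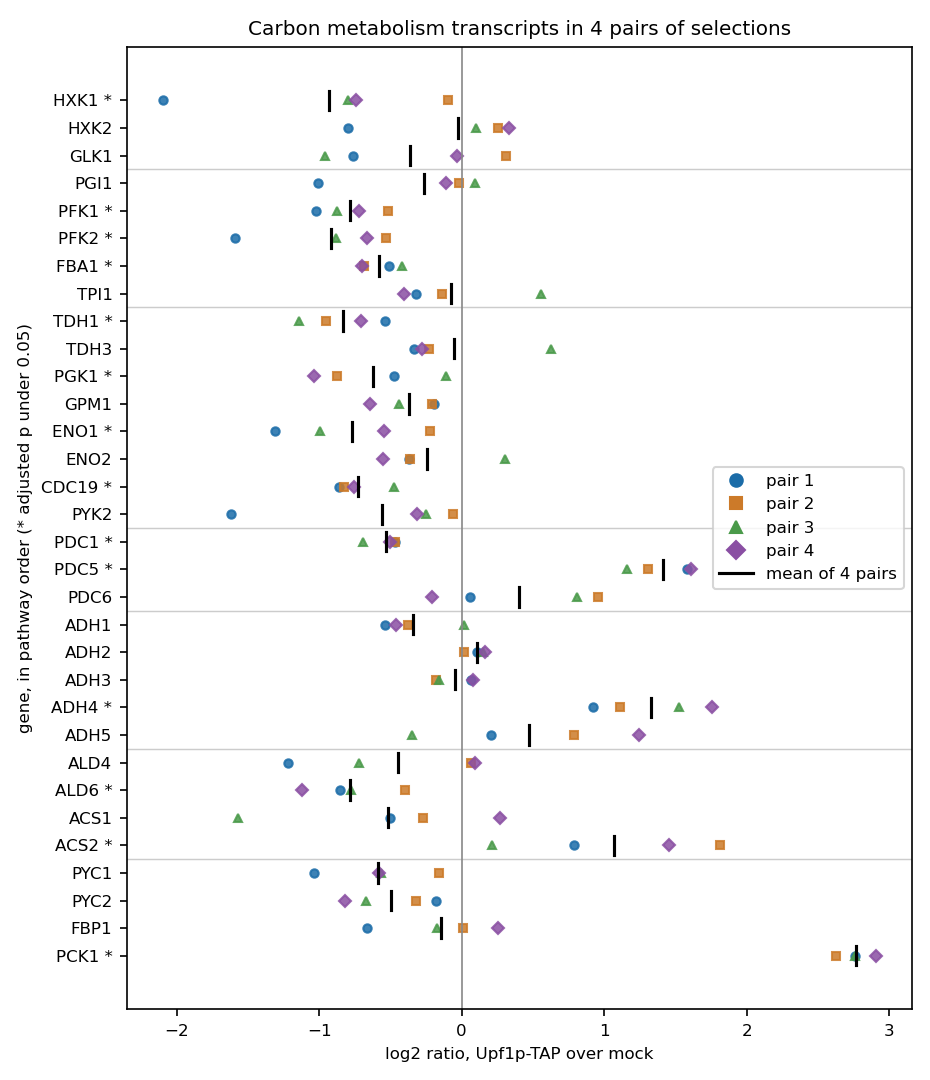
Log2 ratio of Upf1p-TAP over mock signal for each of 32 genes, 1 marker per pair of selections and a black bar at the mean of 4 pairs, grouped by step of the pathway from hexose phosphorylation (top) to gluconeogenesis (bottom). PCK1 stands apart at 2.76, PDC5, ADH4 and ACS2 lie between 1.07 and 1.41, and 25 of 32 means lie below 0.

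PCK1 had the highest ratio of the set. It encodes phosphoenolpyruvate carboxykinase, the enzyme that commits carbon to gluconeogenesis and that cells on glucose do not need. Its signals (probe set 10478_at) were 421, 482, 523 and 540.3 in Upf1p-TAP selections 1 to 4 and 58.6, 74.6, 73.8 and 68.4 in mock selections 1 to 4. Every tagged array lay far above every mock array, and neither group varied much. The log2 ratio was 2.76 (SE 0.19, adjusted p = 3.77e-05), or 6.79-fold, and it stayed between 2.63 and 2.91 in the 4 pairs. FBP1, encoding fructose-1,6-bisphosphatase, catalyses the other step that is specific to gluconeogenesis. It was dim in both groups, 13.0 ± 3.85 in the tagged group and 14.6 ± 2.38 among mock arrays (SD, n = 4), below the 25th percentile of all values (15.97), and its ratio of -0.14 did not pass. The offset makes the ratio of such a dim transcript too small. Of genes of like mock signal, 21% were called higher and 9% lower. They were matched on mock signal only, so these shares do not show whether a change of FBP1 could be seen.

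The carboxylases PYC1 and PYC2, which make oxaloacetate from pyruvate, did not pass either. PYC1 signals were 109.5, 146, 182 and 95.6 with the tag against 229, 163, 272 and 145 in the mock, and the ratio was -0.59 (SE 0.21, adjusted p = 0.0631). PYC2 gave 410.2, 255, 390.1 and 211 against 466, 320.3, 623 and 375, with a ratio of -0.50 (SE 0.19, adjusted p = 0.0796). Both had less signal with the tag in each of 4 pairs, though the groups overlapped. After centring each array on its median both were called lower (log2 ratios of -0.73 and -0.64).

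Pyruvate decarboxylase, the first step from pyruvate to ethanol, has a main enzyme on glucose, Pdc1p, and 2 minor ones. PDC5 is a close relative that cells use when PDC1 is missing or thiamine is short, and PDC6 is tied to sulfur limitation. PDC1 signals were 6514, 3679, 3029 and 4291 in the tagged selections and 9031, 5082, 4897 and 6073 in the mock. Pair by pair the tagged array was lower, while array 1 of each group was much brighter than the rest, so the groups overlapped. Its ratio was -0.53 (SE 0.14, adjusted p = 0.0171), and the call ended without pair 2 (adjusted p = 0.0706) and without pair 4 (adjusted p = 0.0608). PDC5 went the opposite way, with 343, 375, 425 and 421 against 112, 149, 188 and 135. No tagged array of PDC5 fell near a mock one, and the ratio was 1.41 (SE 0.19, adjusted p = 7.89e-04), or 2.66-fold. PDC6 was close to background everywhere, at most 7.41, so its ratio of 0.40, not called, says little. Within pairs, PDC5 exceeded PDC1 by 1.95 ± 0.16 on the log2 scale (SD, n = 4 pairs), the steadiest of the 14 isozyme differences.

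Alcohol dehydrogenases reduce acetaldehyde to ethanol or, in the case of Adh2p, run the reverse reaction once glucose is gone. ADH1, the fermentative enzyme of the cytosol, had signals of 10694, 6204, 7883 and 7615 with the tag and 15546, 8041, 7795 and 10488 in the mock. Its ratio of -0.34 (SE 0.14, adjusted p = 0.102) did not pass, and pair 3 showed next to no difference (0.02). Without pair 3 it was called lower (-0.46, adjusted p = 0.0221). ADH2, the glucose-repressed isozyme, hardly moved: 87.1, 83.5, 93.8 and 94.8 against 80.4, 82.5, 84.2 and 84.2, a ratio of 0.11 (SE 0.20, adjusted p = 0.713). ADH3, the mitochondrial enzyme, gave 2540.0, 2039, 2039 and 1988 against 2425, 2314, 2275 and 1878. The 2 groups interleaved, with a ratio of -0.05 (SE 0.15, adjusted p = 0.845).

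ADH4, a dehydrogenase of a different protein family whose gene responds to zinc shortage, was higher. On probe set 5257_at its signals were 365, 836, 1098 and 1170.2 with the tag and 191, 385, 379 and 343 in the mock. Pair 1 was dim on both arrays, so that tagged array 1 lay below 2 of the mock arrays, yet the tagged array was higher in every pair. The ratio was 1.33 (SE 0.20, adjusted p = 0.00139), with 0.92, 1.11, 1.53 and 1.76 in pairs 1 to 4. A second probe set for ADH4 (2247_at) had signals no higher than 9.44 on any array and was not called (0.58). ADH5 gave 984, 906, 442 and 1002 against 855, 524, 564 and 422. It was higher in 3 of 4 pairs and lower in pair 3, and its ratio of 0.47 (SE 0.26, adjusted p = 0.197) did not pass. Without pair 3 ADH5 was called (0.74, adjusted p = 0.0483).

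Acetaldehyde can also be oxidised to acetate and activated to acetyl-CoA. ALD6, the main cytosolic aldehyde dehydrogenase, was lower: 273, 336, 386 and 340.4 with the tag, 496, 445, 664 and 744 in the mock. No tagged array reached the mock range on probe set 7828_at, and the ratio was -0.79 (SE 0.19, adjusted p = 0.0134). The call ended without pair 4 (-0.68, adjusted p = 0.0737). A second ALD6 probe set (11378_at), with signals of 9.85 or less, had -0.52 and was not called. ALD4, the mitochondrial enzyme, had 235, 261, 176 and 255 against 553, 249, 293 and 239. Apart from mock array 1 these values overlapped, and the ratio of -0.45 (SE 0.25, adjusted p = 0.218) did not pass.

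ACS2, the acetyl-CoA synthetase that cells on glucose depend on, was higher in the Upf1p-TAP selections. Its signals were 811, 1625, 1196 and 1802 with the tag and 467, 459, 1030.4 and 656 in the mock, where array 3 was the brightest and exceeded tagged array 1. The ratio was 1.07 (SE 0.26, adjusted p = 0.0126), and it ranged from 0.21 in pair 3 to 1.81 in pair 2. The call ended without pair 2 (0.82, adjusted p = 0.0581) and without pair 4 (0.94, adjusted p = 0.0554). ACS1, the glucose-repressed synthetase, did not follow. It had 54.8, 86.9, 35.7 and 95.3 against 79.2, 106, 114 and 78.4, a ratio of -0.52 (SE 0.29, adjusted p = 0.214) that was below 0 in 3 of 4 pairs and 0.27 in pair 4. Here the isozyme used on glucose had the higher ratio, the reverse of the order in the PDC genes.

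**Figure D2:**
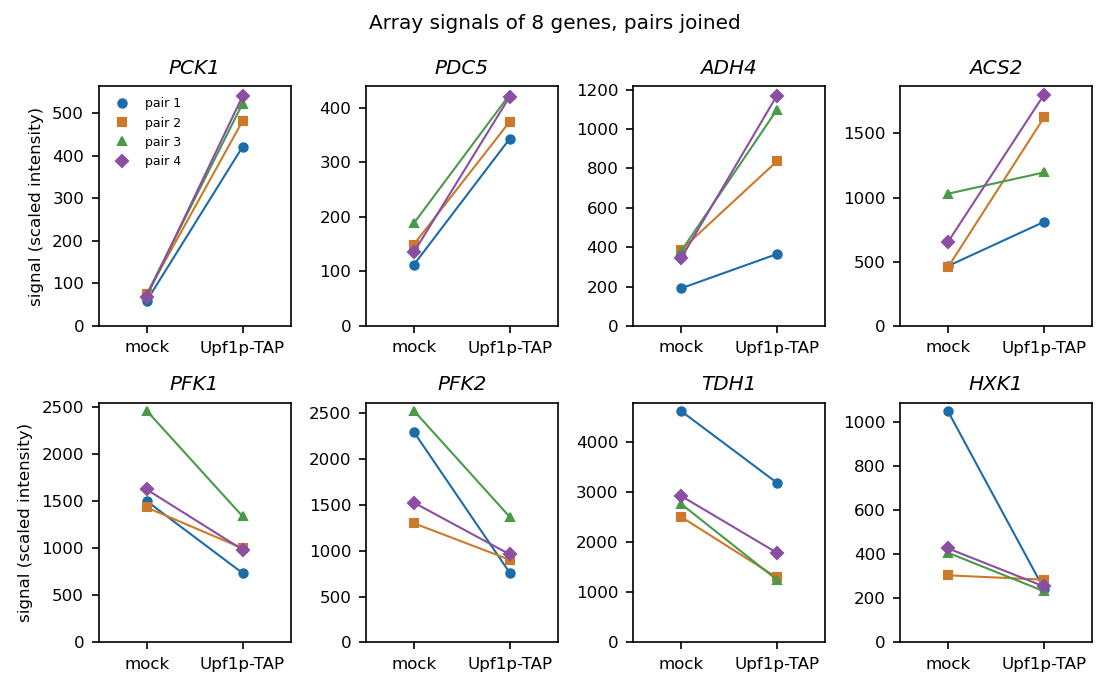
Signal (scaled intensity, linear axis from 0) of 8 genes in mock and Upf1p-TAP selections, with the 2 arrays of each pair joined. The 4 genes in the upper row rose in every pair and the 4 in the lower row fell in every pair. HXK1 in mock selection 1 (1048) stands far above the other mock arrays.

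Entry of glucose into the pathway begins with its phosphorylation. HXK2, the hexokinase that predominates on glucose, had 1053, 1966, 2996 and 2278 with the tag and 1832, 1647, 2790.1 and 1804 in the mock. The groups interleaved, pair 1 was below 0 (-0.80) and the others above, and the ratio was -0.03 (SE 0.21, adjusted p = 0.942). HXK1, an isozyme repressed by glucose, had 242, 285, 232 and 254 against 1048, 304, 407 and 426. All 4 tagged arrays lay below all 4 mock arrays, and the ratio was -0.93 (SE 0.29, adjusted p = 0.0387). Mock selection 1 carried much of this difference: pair 1 had -2.10 and pair 2 only -0.10. The call ended without pair 1 (-0.54, adjusted p = 0.140), without pair 3 (-0.98, adjusted p = 0.0780), without pair 4 (-0.997, adjusted p = 0.0771) and without the pair term (adjusted p = 0.0539). The glucokinase gene GLK1 gave 674, 706, 461 and 789 against 1146, 569, 902 and 807, with a ratio of -0.36 (SE 0.24, adjusted p = 0.279) and both signs among the pairs.

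Mock array 1 had a higher maximum (23600) than mock arrays 2 to 4 (10615, 11531 and 14076). Of the 32 genes, 16 lay above the 95th percentile of mock signal. Mock selection 1 was the brightest of the 4 mock arrays for 19 of the 32 genes, against 24.2% of protein-coding genes. That share covers genes of all signals, and a share among equally bright genes was not computed. These 19 include main isozymes of growth on glucose, such as CDC19, PDC1 and ADH1, as well as HXK1, PYK2 and ALD4. Mock selection 1 was the dimmest for 5 of the 32, PCK1 and ADH2 among them, against 1832 of 5486 protein-coding genes. PYK2, the minor pyruvate kinase, had 30.8, 49.8, 46.8 and 51.9 with the tag and 103, 52.1, 56.3 and 65.4 in the mock. Its ratio was -1.61 in pair 1 and between -0.31 and -0.06 in the others, and it did not pass (-0.56 (SE 0.28, adjusted p = 0.165)). EMI2, a relative of GLK1, was lower at -1.08 (SE 0.19, adjusted p = 0.00271), with 1147, 416, 567 and 500.3 in the mock. Without pair 1, which drops tagged array 1 as well as mock array 1, HXK1 had -0.54 and PYK2 -0.21, neither called, while EMI2 had -0.95 and was still called. Over the 32 genes, leaving out pair 1 gave a median of -0.22, with 4 higher and 7 lower. Over all 9275 probe sets it gave 1365 higher and 887 lower, against 1642 and 1249 with all pairs.

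Phosphofructokinase, the enzyme at which glycolysis is held back or let through, is built from 2 kinds of subunit, and both transcripts were lower. PFK1 had 737, 1001, 1340.3 and 986 with the tag against 1503, 1435, 2463 and 1626 in the mock, with no overlap, and a ratio of -0.78 (SE 0.17, adjusted p = 0.00714). PFK2 had 759, 901, 1369 and 961 against 2297, 1301, 2528 and 1525. Tagged array 3 just exceeded mock array 2, but the tagged array was lower in each pair, with a ratio of -0.92 (SE 0.20, adjusted p = 0.00882). Both calls held under all 11 alternatives. The subunit transcripts tracked each other across pairs except in pair 1, where PFK2 had -1.59 and PFK1 -1.02.

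The other steps of upper glycolysis were less uniform. FBA1, encoding aldolase, had 6724, 3483, 4036 and 4185 against 9574, 5606, 5404 and 6805 and a ratio of -0.58 (SE 0.14, adjusted p = 0.0123). Array 1 of both groups was the brightest, and the difference shows within pairs. The call ended without pair 2 (adjusted p = 0.0750) and without pair 4 (adjusted p = 0.0609). PGI1 (phosphoglucose isomerase) had -0.26 and TPI1 (triosephosphate isomerase) -0.07, neither called. TPI1 was above 0 in pair 3 (0.56) and below 0 in the other pairs.

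Lower glycolysis, from glyceraldehyde-3-phosphate to pyruvate, gave 4 lower of 8 genes and 0 higher in the limma test (0 higher also at an unadjusted p below 0.05). All but PYK2 lay above the 95th percentile of mock signal, where 32.1% of protein-coding genes were lower and 2.03% higher. CDC19, the main pyruvate kinase, was lower in each pair, 5559, 3022, 4348 and 4308 against 10106, 5364, 6036 and 7256. Only the bright tagged array 1 reached the mock range. The ratio was -0.73 (SE 0.14, adjusted p = 0.00473) and the call held under all 11 alternatives. PGK1, phosphoglycerate kinase, had 7488, 3779, 6228 and 4139 against 10414, 6921, 6736 and 8477. Its ratio of -0.62 (SE 0.17, adjusted p = 0.0240) ran from -1.03 in pair 4 to -0.11 in pair 3, and the call ended without pair 1, 2 or 4 (highest adjusted p = 0.117, without pair 2). GPM1, phosphoglycerate mutase, was below 0 in 4 of 4 pairs and did not pass (-0.37 (SE 0.14, adjusted p = 0.0789)).

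Some probe sets of the glyceraldehyde-3-phosphate dehydrogenase genes are assigned to several of them, so others may also read more than 1 transcript. Sequence identity between these genes was not computed, nor between PDC1 and PDC5, ADH1 and ADH2, or ENO1 and ENO2. Whether the probe sets of PDC5 and ADH2 partly read PDC1 and ADH1 was thus not tested. TDH1, a minor isozyme used mainly in stationary phase, had 3189.6, 1297, 1253 and 1792 against 4624, 2510.2, 2769 and 2928, with a ratio of -0.83 (SE 0.16, adjusted p = 0.00498). Tagged array 1 was the only one to enter the mock range. The probe set of TDH3, the main isozyme, had 12182, 6093, 9508 and 7467 against 15368, 7146, 6152 and 9039.8. Pair 3 was at 0.63 and the other pairs were between -0.34 and -0.23, giving -0.05 (SE 0.18, adjusted p = 0.854). A probe set shared by TDH2 and TDH3 read 8921, 4316, 4606 and 5527 against 12928, 6574, 6663 and 8608 and was lower at -0.58 (SE 0.13, adjusted p = 0.00935), with all pairs between -0.64 and -0.53. Its call ended without pair 2 (adjusted p = 0.0586) and without the pair term (adjusted p = 0.145). The probe set of all 3 genes had -0.38 and did not pass (adjusted p = 0.0594). Probe sets that contain TDH3 thus gave different answers, and its own has a name (_i_at) that marks fewer unique probes than the design called for.

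Of the enolase genes, ENO1 was called and ENO2 was not. The probe sets of both have the same _i_at mark as that of TDH3. ENO1, the isozyme favoured without glucose, had 4938, 4098, 3632 and 5916 against 12252, 4789, 7243 and 8647 and was lower at -0.77 (SE 0.19, adjusted p = 0.0138). Mock array 1 was the brightest here too, and the call ended without pair 1 (-0.59, adjusted p = 0.0629). ENO2, the glucose-induced isozyme, had 8116, 5185, 8592 and 6157 against 10465, 6653, 6955 and 9027, a ratio of -0.24 (SE 0.17, adjusted p = 0.303). As with TPI1 and TDH3, pair 3 alone was above 0 (0.30), and without that pair ENO2 was called lower (-0.43, adjusted p = 0.0354). The probe set shared by both enolases had -0.24 and was not called.

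Isozyme genes were compared within pairs, as the ratio of the minor gene less that of the main one. Of 15 differences planned, 14 could be computed, since TDH2 has no probe set of its own. An exact sign-flip permutation test over 4 pairs (two-sided) cannot go below p = 0.125, and no difference can pass at this number of pairs. In 7 of 14 all pairs had 1 sign, each with p = 0.125 in the exact test and an adjusted p of 0.25 over the 14. The minor gene was above the main one in 4 of these: PDC5 and PDC6 against PDC1 (1.95 and 0.94), and ADH4 and ADH2 against ADH1 (1.67 and 0.45). The minor gene was below it in the other 3: ACS1 against ACS2 (-1.59 ± 0.42, SD, n = 4 pairs), HXK1 against HXK2 (-0.91 ± 0.41) and TDH1 against TDH3 (-0.78 ± 0.69). The remaining 7 had pairs of both signs, with means from -0.53 (ENO1 against ENO2) to 0.81 (ADH5 against ADH1). Minor isozymes therefore had no common direction. A single sign in all 4 pairs was common on these arrays. Among 5486 protein-coding genes, the ratio was above 0 in all pairs for 1584 and below 0 for 1302. Such a share was not computed for differences between genes. Main and minor genes also differ in mock signal, which goes with the ratio. Beside genes of like mock signal, ADH2 stood at -0.01 and ADH1 at -0.07, close together. PDC5 and ADH4 stood at 1.40 and 1.47 on that measure, and PDC1 at -0.27. PDC6 was close to background, with signals of at most 7.41.

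**Figure D3:**
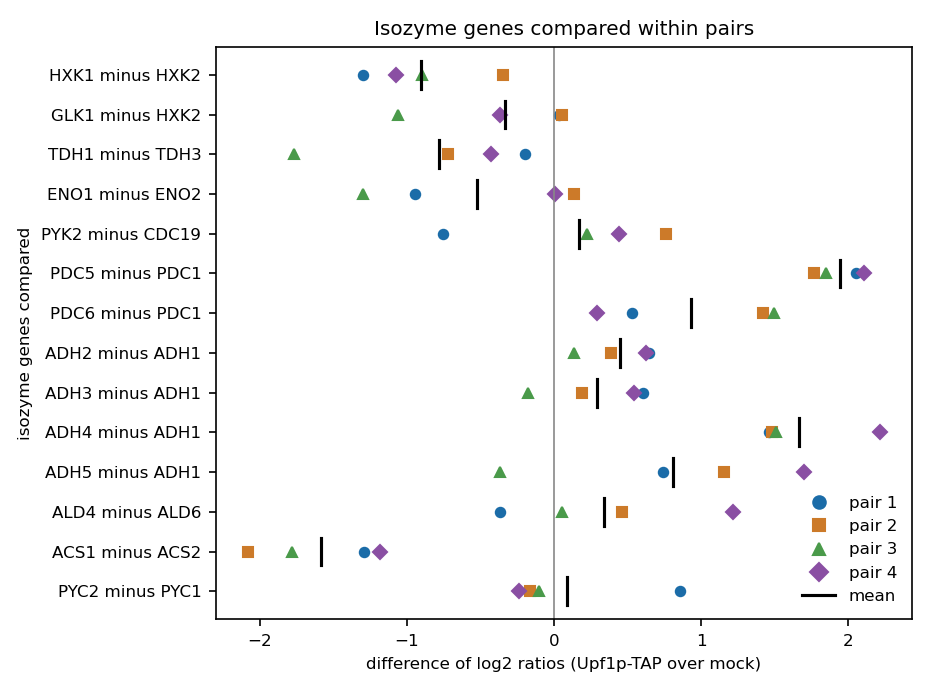
Difference between the log2 ratios (Upf1p-TAP over mock) of 2 isozyme genes, the minor less the main one, for 14 combinations, with 1 marker per pair of selections and a bar at the mean. PDC5 minus PDC1 lies between 1.77 and 2.11 and ADH4 minus ADH1 between 1.46 and 2.22, while ACS1 minus ACS2 lies between -2.08 and -1.18. For PYC2 minus PYC1 neither gene is taken as the main one.

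The mock signal of a probe set goes with its ratio on these arrays, so each gene was set beside the 200 protein-coding probe sets nearest to it in mean mock signal. The mock arrays enter both the level and the ratio, and no test was made. For the brightest listed genes, from PDC1 up to ADH1 in mock signal, the neighbours gave the same median (-0.27) and spread. The match in signal was thus not equally close for each of them. As ratios decline with signal, their differences from that median are a loose comparison. Of the 32 genes, 16 lay above the 95th percentile of mock signal, a limit chosen after the values were seen. Among those 16, limma called 8 lower and 0 higher (0 also at an unadjusted p below 0.05), with a median of -0.45. Of all 296 protein-coding genes above that percentile, which include these, 32.1% were lower and 2.03% higher, with a median of -0.30. The part that scanner saturation might play at such signals was not tested. ADH1 (-0.27 for the genes near it in signal), ENO2, PGI1 and GPM1 were within 0.103 of their neighbours' median, whereas HXK2, ADH3, TDH3 and TPI1 were above it by 0.31, 0.29, 0.21 and 0.19. The other 8 were below it, from PDC1 with a difference of -0.27 to TDH1 with -0.52 and PFK2 with -0.60.

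The 16 genes at or below that percentile were more mixed. ADH2 (-0.01) and GLK1 (-0.09) lay near the median of genes of like signal. PCK1 exceeded the median of genes near it in signal by 2.55, and 10% to 90% of those genes ran from -0.81 to 0.95. ADH4 exceeded its neighbours' median by 1.47, PDC5 by 1.40 and ACS2 by 1.19. Below their neighbours were PYK2 (-0.78), HXK1 (-0.68), ACS1 (-0.60), PYC1 (-0.57) and ALD6 (-0.56). Over the 32 genes, 12 were above and 20 below the median of genes of like signal and the median difference was -0.18.

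**Figure D4:**
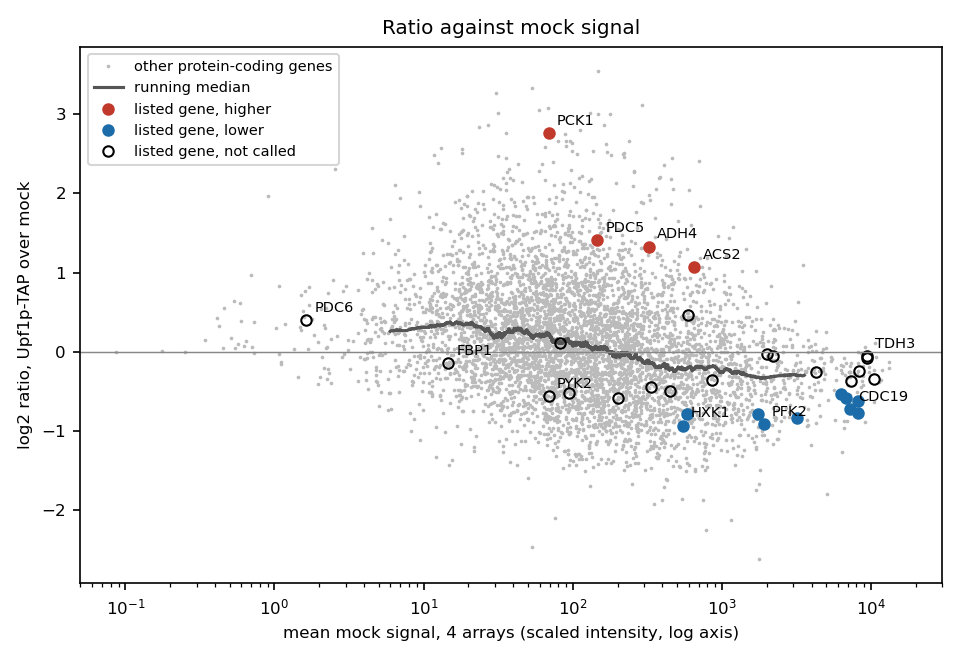
Log2 ratio of Upf1p-TAP over mock against the mean mock signal (log axis) for 32 listed genes (large symbols, coloured by call) and all other protein-coding genes (grey), with a running median. The running median declines with signal, the listed genes at the bright end have ratios below 0, and PCK1, PDC5, ADH4 and ACS2 lie well above.

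A second list held 10 genes of growth without glucose, the condition in which PCK1 is used. Of these 4 were higher and 0 lower in the limma test (0 lower also at an unadjusted p below 0.05), beside 20.1% higher and 13.8% lower among protein-coding genes. The 4 were ICL1, encoding isocitrate lyase of the glyoxylate cycle, IDP2, a cytosolic isocitrate dehydrogenase, the carnitine acetyltransferase gene CAT2 and SPG1. ICL1 signals were 262, 371, 482 and 282 with the tag against 62.6, 71.8, 55.0 and 60.4 in the mock, a clear separation with a ratio of 2.37 (SE 0.23, adjusted p = 1.25e-04). IDP2 had 114, 121, 57.7 and 115 against 25.9, 31.4, 21.6 and 23.1, and a ratio of 1.80 (SE 0.23, adjusted p = 5.50e-04). CAT2 had 1.33 (SE 0.22, adjusted p = 0.00223). SPG1 had 0.77 (SE 0.23, adjusted p = 0.0299) and was dim, 24.3 ± 6.09 against 12.5 ± 3.96 (SD, n = 4), and its call ended without any single pair (adjusted p up to 0.0996, without pair 4). MLS1, the malate synthase that acts next to isocitrate lyase, had 0.02 and the lactate transporter gene JEN1 -0.11, neither called. Both were dim, with mock means of 22.6 and 21.6. SFC1, POX1, ADY2 and REG2 were not called either, with mock means of 3.74, 7.41, 25.7 and 67.1. Calls for glucose-repressed genes were thus split. They were split among the listed genes too, with PCK1 higher, HXK1 lower and ADH2, ACS1 and FBP1 not called. For the dimmest of these genes, SFC1, POX1 and FBP1, a missing call says little.

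**Figure D5:**
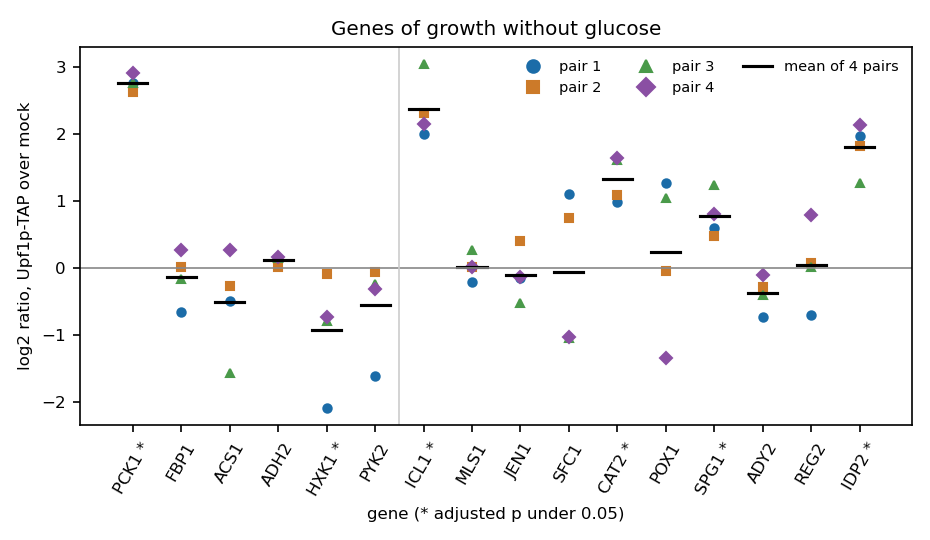
Log2 ratio of Upf1p-TAP over mock in each of 4 pairs (markers) and their mean (bar) for PCK1, FBP1, ACS1, ADH2, HXK1 and PYK2 of the main list (left of the line) and 10 further genes of growth without glucose (right). PCK1, ICL1, IDP2, CAT2 and SPG1 were higher, HXK1 was lower and the other 10 did not pass.

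Around the core pathway, 54 further genes of carbon metabolism and its control were examined, of which 7 were higher, 8 lower and 39 not called. That is 13.0% higher and 14.8% lower, where protein-coding genes had 20.1% and 13.8%, so the lower share is near the background and the higher one below it. Their median ratio was -0.12. REG1, encoding a subunit that directs protein phosphatase 1 to its targets in glucose repression, had 150.4, 307, 289.7 and 227 against 38.2, 44.6, 55.1 and 32.9, without overlap and with a ratio of 2.37 (SE 0.22, adjusted p = 1.09e-04). GPD2, one of 2 glycerol-3-phosphate dehydrogenases that drain carbon to glycerol, had 226, 649.9, 723 and 424 against 93.2, 172, 224 and 154, a ratio of 1.56 (SE 0.20, adjusted p = 5.46e-04). Its isozyme gene GPD1 was lower at -0.57 (SE 0.17, adjusted p = 0.0279), a call that ended without pair 1, 2 or 4 (highest adjusted p = 0.104, without pair 4). THI3 (1.17), a thiamine sensor needed for PDC5 expression when thiamine is short, was higher. So was GCR1 (0.85), the activator of glycolytic genes, whose call ended without pair 1 or pair 4 (highest adjusted p = 0.0761).

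The largest falls in this wider list were those of LAT1 (-1.22 (SE 0.29, adjusted p = 0.0117)), a subunit of pyruvate dehydrogenase, MIG2 (-1.17 (SE 0.22, adjusted p = 0.00388)), a repressor in glucose signalling, the transketolase gene TKL1 (-1.11 (SE 0.17, adjusted p = 0.00153)) and EMI2. LAT1 had 773, 671, 231 and 549 with the tag against 1266, 1045, 1281 and 1166, with array 3 of the tagged group far below the rest. PDB1, another subunit of the same enzyme complex, was higher at 0.83 (SE 0.17, adjusted p = 0.00651). The other genes of this complex in the wider list, PDA1 (-0.01), LPD1 (-0.31) and PDX1 (-0.28), were not called. TYE7 (-1.01) and RAP1 (-0.67), which together with GCR1 activate glycolytic genes, were lower, and RAP1 lost its call without any single pair (adjusted p up to 0.0985, without pair 3), while TYE7 lost it without pair 1 (-0.70, adjusted p = 0.0785). GPD1, PDB1, PDA1, LPD1, PDX1, TYE7 and RAP1 are named after their values were seen.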

How the data were processed

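The values are intensity readings on a linear scale that the authors deposited as 1 table. GCOS is the software that the submitters' processing notes name, without a version or setting. Each array had been scaled before deposit, since all trimmed means (2% left out at each end) lay between 250.2 and 250.3. Of 9335 probe sets, 60 controls were left out. The annotation of the platform paired 1 gene with 6504 of the other 9275, several with 328 and none with 2443, with symbols brought up to date from RefSeq. Ratios were computed on log2(intensity + 4.09), where 4.09 is the 10th percentile of the deposited values. On that scale the ratio of a dim transcript is too small. The test was limma 3.58.1 in R 4.3.3, with group and pair as terms, eBayes with an intensity trend, and two-sided p-values adjusted by Benjamini-Hochberg over 9275 probe sets. It was tested on simulated data with normal noise and spreads drawn from brighter probe sets, which cannot show how it handles dim ones. The pair is the replicate number, because the series describes its selections as independent pairs. Deviations of same-numbered arrays from their group means correlated at 0.18 to 0.55 over 4637 brighter probe sets, and those of other combinations at -0.54 to 0.35. Nothing says that cultures were separate beyond this, so the spread behind a p-value may be partly technical. For a gene with several probe sets, a plain one was taken before one marked as shared, then the brightest. Array signals are printed for each gene of an isozyme difference, each listed gene past the threshold and the 5 largest ratios that missed it. Of the 2 further lists, up to 4 genes past the threshold in each direction are named. Alternatives were no pair term, quantile normalization, median centring, 2 other offsets, a filter on dim probe sets, no trend and leaving out each pair. Genes and lists were chosen with earlier results of these data known. The number of arrays limits the precision.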

Additional observations from a re-analysis of the deposited data

Results flagged for a closer look

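Within groups of 4 arrays, 3 values lay far from the others by Dixon's ratio, out of 74 groups tested. Chance alone flags about 1 in 20 such groups. ADH3 in Upf1p-TAP selection 1 had a signal of 2540.0, against 1988 to 2039 in the other tagged arrays. ADH4 in mock selection 1 had 191, against 343 to 385 in the other mock arrays. ADH5 in Upf1p-TAP selection 3 had 442, against 906 to 1002 in the other tagged arrays.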

How the results depend on the processing

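PCK1, PDC5, ADH4, PFK1, PFK2 and CDC19 kept direction and call under all 11 alternatives. Without the replicate block (the pair term) 4 genes and 4 of all 37 probe sets were lower, against 10 and 11 with it, and the cause was not tested. Over all 9275 probe sets, 931 were lower without the pair term and 1249 with it. Median centring moved the median of all probe sets from 0.00 to -0.14 and that of the listed genes to -0.51. Relative to all probe sets the listed genes then stood at about the same place. It gave 13 lower genes and 4 higher, and over all probe sets the higher share of calls moved from 56.8% to 42.7% (49.6% after quantile normalization). Leaving out 1 pair gave 5 to 11 lower genes (6 to 13 probe sets), 3 to 5 higher genes and a median between -0.48 and -0.22. Over all probe sets it gave 775 to 953 lower, against 1249, and 1076 to 1384 higher, against 1642. In the 54 further genes it gave 4 to 7 higher and 5 to 7 lower. Fewer arrays enter those fits.

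Among single genes, signs turned for ratios near 0 that were not called. Quantile normalization gave 0.068 for HXK2, 0.085 for TPI1, 0.11 for TDH3, -0.050 for ADH2 and 0.087 for ADH3, and median centring -0.034 for ADH2. Leaving out 1 pair gave -0.15 to 0.23 for HXK2, -0.29 to 0.035 for TPI1, -0.28 to 0.041 for TDH3 and -0.28 to 0.031 for FBP1. Among isozyme differences, main less minor, quantile normalization gave -1.58 for PDC1 less PDC5, -0.14 for ADH1 less ADH2 and 0.20 for CDC19 less PYK2. The mean of both ADH4 probe sets, of which 1 is near background, gave -1.29 for ADH1 less ADH4. Without 1 pair, CDC19 less PYK2 ran from -0.48 to 0.029 and PYC1 less PYC2 from -0.20 to 0.17. A difference for TDH2 was planned and could not be run. PDC6, close to background, limits what could be seen there, and the offset makes the ratio of the dim FBP1 smaller.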

Other observations

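One probe set that names a listed gene lay outside the rule, since it is also assigned to YCL042W. This set (6936_g_at, GLK1 and YCL042W) had signals of 30.1, 62.9, 41.1 and 117 with the tag and 206, 107, 131 and 171 in the mock, and was lower at -1.37 (SE 0.33, adjusted p = 0.0129) in 4 of 4 pairs. The probe set of GLK1 alone had -0.36 and was not called.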
